A study of Mus musculus with 41 samples.

Results

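Mitochondrial fatty acid oxidation was followed here through 10 enzymes, *Cpt1a*, *Cpt1b*, *Cpt2*, *Acadvl*, *Acadl*, *Acadm*, *Hadha*, *Hadhb*, *Acaa2* and *Etfdh*. These enzymes were taken by gene symbol, with earlier results of these data known. They were measured by 23 of the 45281 probes of the array and are 10 of the 19057 genes that the probes are annotated to. RNA of mice at postnatal day 4 was hybridised to Illumina Mouse WG-6 v2 arrays, and each of the 41 arrays held 1 animal. The dams had received metformin or vehicle by mouth during gestation. Male offspring of dams on a high fat diet (HFD) gave 6 metformin and 6 control livers, and 5 metformin and 6 control samples of subcutaneous adipose tissue (SAT). Offspring of dams on a regular diet (RD) gave 3 metformin and 3 control livers of each sex, and 3 metformin and 3 control brains of the males. By the methods the mice were C57/BL6NHsd, and the pups themselves were not dosed. HFD and RD arrays came from separate studies, so that diet and study cannot be told apart, and SAT was extracted with another kit than liver and brain, so that tissue and kit cannot be told apart either. Which pups shared a dam is not stated, and p-values therefore measure the spread between pups.

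Long chain fatty acids enter mitochondria as carnitine esters, which the carnitine palmitoyltransferases make on the outer membrane (*Cpt1a*, the liver form, and *Cpt1b*, the form of muscle and brown fat) and turn back into acyl-CoA on the inner one (*Cpt2*). Acyl-CoA dehydrogenases for very long, long and medium chains (*Acadvl*, *Acadl*, *Acadm*) start each round of β-oxidation, the trifunctional protein (*Hadha*, *Hadhb*) hydrates, oxidises and cleaves long chain intermediates, and the thiolase *Acaa2* releases acetyl-CoA. Electrons from the dehydrogenases reach ubiquinone through *Etfdh*. In newborns, who live on the fat of milk, liver is the main site of this pathway and makes ketone bodies from it, brown fat burns fatty acids for heat, and brain oxidises few of them.

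The promoters of 8 of the 10 genes were in the RefSeq set used (mouse build GRCm38.p6, windows of 300 bases that hold 250 before and 50 after the start that the set gives). *Etfdh* and *Hadhb* are shown because the results in liver and SAT turn on them most. In *Etfdh* (chr3:79628718-79629017, minus strand) the capitals mark a CCAAT box and an NRF1 site (GCGCATGCGC), which do not overlap. In *Hadhb* (chr5:30155003-30155302, plus strand) they mark GC boxes, that is GGGCGG or its reverse complement.
Etfdh: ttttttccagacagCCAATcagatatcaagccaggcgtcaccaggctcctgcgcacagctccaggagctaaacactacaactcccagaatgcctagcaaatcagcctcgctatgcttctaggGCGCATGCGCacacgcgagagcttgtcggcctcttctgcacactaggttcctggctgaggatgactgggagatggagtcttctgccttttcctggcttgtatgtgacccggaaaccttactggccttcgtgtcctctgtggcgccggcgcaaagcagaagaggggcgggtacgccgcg
Hadhb: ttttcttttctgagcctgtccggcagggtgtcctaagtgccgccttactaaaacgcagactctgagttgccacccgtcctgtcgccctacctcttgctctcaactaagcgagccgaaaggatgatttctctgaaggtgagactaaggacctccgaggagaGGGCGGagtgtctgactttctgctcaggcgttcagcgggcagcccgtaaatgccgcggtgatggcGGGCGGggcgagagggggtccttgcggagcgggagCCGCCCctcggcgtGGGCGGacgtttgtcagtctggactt
In *Cpt1a* that start lies inside the gene model, and its window wholly downstream of the first annotated start. Searched on both strands, the NRF1 site was in 1 of the 8 promoters (*Etfdh*), against 0.971% of the 32851 windows of this length. The CCAAT box was in 2 of 8 (*Cpt1a* and *Etfdh*), against 37.4% of all windows, and the GC box in 6 of 8 (*Acadl*, *Cpt1a*, *Cpt2*, *Etfdh*, *Hadha* and *Hadhb*), against 35.7%. The GC box of *Etfdh* is left in lower case above. The direct repeat bound by PPAR receptors, AGGTCANAGGTCA, matched in 0 of 8 (0.0396% of all windows), and AGGTCA, its single repeat unit, in 3 of 8 (*Acadm*, *Acadvl* and *Cpt1a*, against 16.3%). *Hadha* and *Hadhb* lie head to head with their starts 273 bases apart, and their windows share 228 bases. A match is a description of letters in a window and was not tested as a binding site.

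Levels below are log2 signals after background correction and quantile normalization, and the level of 1 probe is not comparable with that of another. Of all probes, 31 to 41.6% were detected on a liver array, 29.9 to 43.4% on a SAT array and 43.6 to 46.1% on a brain array (detection p under 0.05). Markers of the labelled tissue were bright in liver (9 hepatocyte markers, mean log2 signal of 11.45 to 11.74 on HFD metformin and 11.58 to 11.93 on HFD control arrays), brain (8 neuron markers, 9.94 to 9.98 on metformin and 10.04 to 10.08 on control arrays) and SAT (8 adipocyte markers, 10.21 to 10.61 on metformin and 10.01 to 10.95 on control arrays). *Cpt1a* was close to the limit of the array. Its better probe was detected on 18 of 24 livers, 0 of 11 SAT and 0 of 6 brain arrays, and its other probe on 2 livers alone. Both the better probe of *Cpt1a* and the single probe of *Hadha* are annotated to cDNA clones rather than to the reference transcripts. A gene is counted below by its brightest probe in a comparison, and called when its adjusted p (limma, Benjamini-Hochberg over all probes kept) was under 0.05.

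In the livers of HFD offspring, *Etfdh* was lower after metformin, and the other 9 enzymes did not pass the test. Of the 10 enzymes 1 was called, with 0.587% of 10046 genes called (0.418% lower and 0.169% higher). *Etfdh*, which hands electrons to ubiquinone, was 9.57 at the lowest, 9.99 at the median and 10.17 at the highest in metformin livers, against 10.33, 10.47 and 10.71 in control livers (log2 signal, n = 6 each). Every metformin liver was below every control liver, as was the case for 0.617% of all genes. The means were 9.93 ± 0.244 and 10.49 ± 0.133 (SD), a log2 fold change of -0.56 ± 0.103 (SE; 95% interval -0.77 to -0.35; adjusted p = 0.0145, limma), or 1.47-fold lower. The call was lost when arrays were centred on their medians in place of quantile normalization (-0.97, adjusted p = 0.849). It was also lost in a model of all 41 arrays (0.0793) and when HFD livers were fitted alone. That fit gave 0.104 without and 0.156 with the animal code as a random block. Each code (10K or 3R in metformin animals, 1R or 1T in controls) held 1 group only.

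The thiolase *Acaa2* had the next lowest adjusted p. It was 10.15, 10.77 and 11.26 in metformin livers and 10.91, 11.45 and 11.66 in control livers (lowest, median and highest log2 signal), so that the groups overlapped. Its log2 fold change was -0.64 ± 0.169 (SE, adjusted p = 0.0696), and it passed with the log2 values of the authors (-0.72, 0.0485), without background correction (-0.63, 0.0455) and with an offset of 50 (-0.63, 0.0479). *Acadm*, the medium chain dehydrogenase, was 11.96, 12.22 and 12.43 in metformin livers and 12.27, 12.51 and 12.88 in controls, with a log2 fold change of -0.35 ± 0.112 (adjusted p = 0.116). *Acadl*, its long chain counterpart, was 7.98, 8.71 and 9.17 in metformin livers and 8.65, 9.07 and 9.69 in controls (-0.45 ± 0.203, adjusted p = 0.251). In both genes the groups overlapped. Before adjustment, 4 of the 10 enzymes were lower with p under 0.05 (*Etfdh*, *Acaa2*, *Acadm* and *Acadl*) and 0 were higher, against 9.4% of all genes lower and 7.85% higher.

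The steps before and around them showed smaller differences in HFD liver. The log2 fold changes were -0.16 for *Cpt1a*, 0.13 for *Cpt1b*, 0.03 for *Cpt2*, -0.04 for *Acadvl*, 0.29 for *Hadha* and -0.03 for *Hadhb*, with adjusted p of 0.46 to 0.925. Over the 10 enzymes the median was -0.10 (7 of 10 negative), beside 0 over all genes. Of the markers of blood-forming cells, which fetal and newborn liver holds, those of granulocytes and erythroid cells had higher values on the metformin arrays, and those of B cells did not. The mean log2 signal of 9 granulocyte markers was 11.44 to 11.62 on metformin arrays and 10.96 to 11.36 on control arrays (median log2 fold change 0.30, with 2 of the 9 called higher), and that of erythroid markers was 10.92 to 11.08 on metformin and 10.39 to 11.06 on control arrays (median 0.31). The mean of 2 B cell markers was 6.16 to 7.18 on metformin and 6.43 to 7.29 on control arrays, and the 1 that was tested was at -0.07. These are bulk samples, in which fewer cells of a type and less RNA per cell cannot be told apart. The part of blood-forming cells in the result was not tested.

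**Figure D1:**
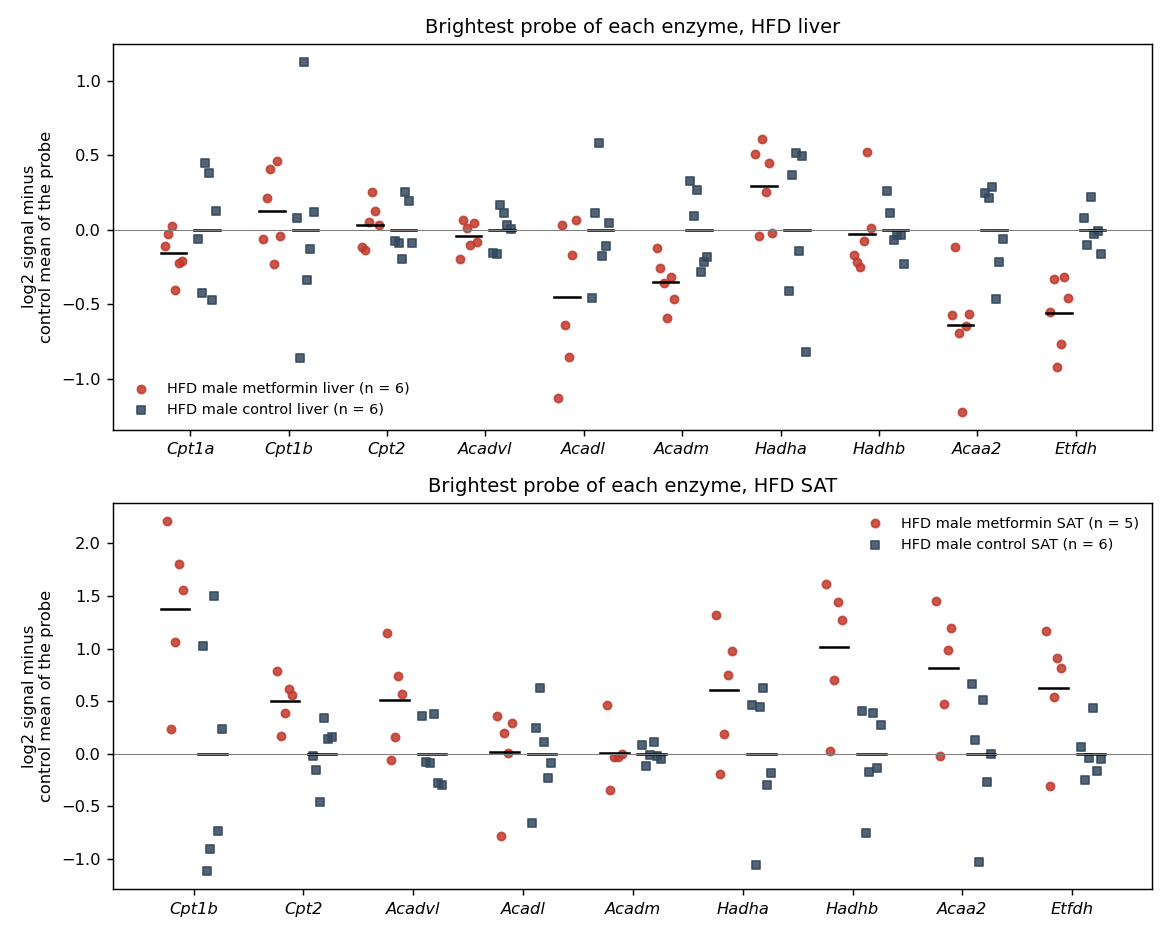
Log2 signal of each array minus the control mean of the same probe, for the brightest probe of each enzyme in HFD liver (above; 6 metformin and 6 control arrays) and HFD SAT (below; 5 metformin and 6 control arrays); points are arrays and lines are group means. In liver every metformin point of Etfdh lies below the control points, and in SAT the metformin means are the higher ones with overlap in every enzyme.

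Probes of a gene did not always move together. In *Acaa2*, 3 probes gave log2 fold changes of -0.64, -0.68 and -0.68 in HFD liver (adjusted p = 0.0511 to 0.0696), and the other probe, ILMN_2788984, gave -0.08 (adjusted p = 0.674, 11.55 in metformin and 11.63 in control livers). In *Etfdh*, the called probe ILMN_2669804 stands for the reference transcript. ILMN_2580585, annotated to a cDNA clone of the gene, was 7.34 in metformin and 7.0 in control livers (0.34 ± 0.21, adjusted p = 0.405), and a further probe of the transcript that is close to background gave 0.05 (adjusted p = 0.879). The other kept probe of *Acadl* gave -0.09 (adjusted p = 0.719), against -0.45 for the brighter one, and the other probes of *Cpt2* gave 0.19 and -0.12. The call in HFD liver therefore rests on 1 of the 3 probes of *Etfdh* that were kept.

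**Figure D2:**
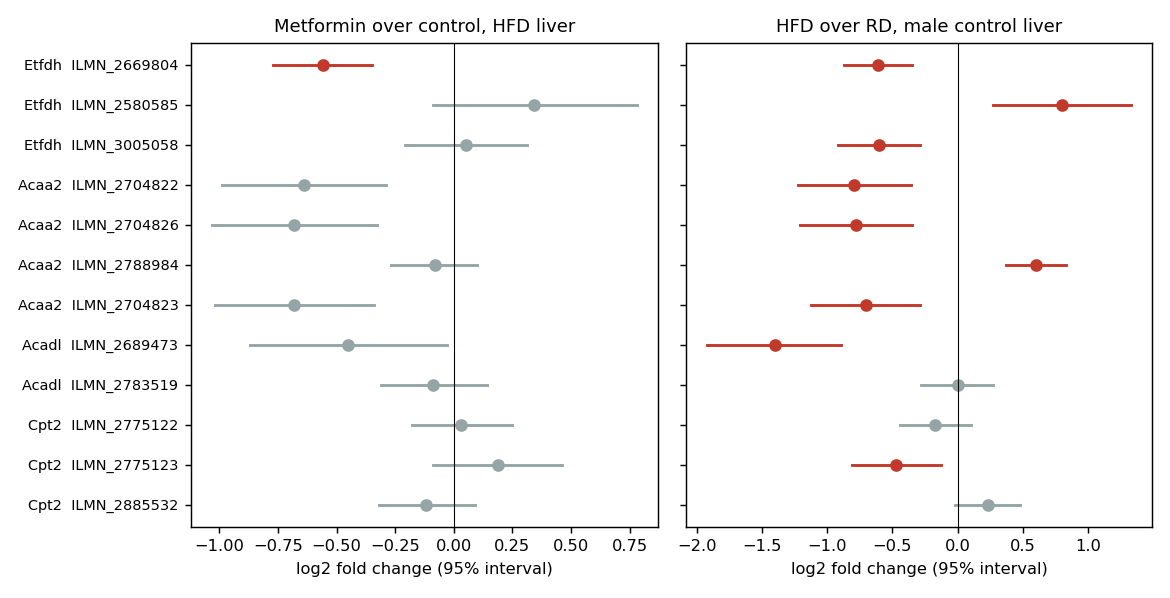
Log2 fold change with its 95% interval for each kept probe of Etfdh, Acaa2, Acadl and Cpt2, for metformin over control in HFD liver (left, n = 6 each) and for HFD over RD in male control liver (right, n = 6 and 3); red marks an adjusted p under 0.05. A probe of Etfdh is red on the left. On the right, the clone probe of Etfdh, 1 probe of Acaa2 and 1 probe of Cpt2 lie on the other side of 0 from the rest of their gene.

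In SAT of the same HFD offspring, all 9 enzymes that were tested had a positive difference in their brightest probe. Of them 0 were called, with 0% of 9360 genes called (limma), and *Cpt1a* was not detected. Before adjustment, 6 of the 9 were higher with p under 0.05 and 0 were lower, against 8.91% and 7.46% of all genes. The groups overlapped in all 9, while 1.65% of all genes were higher without overlap. The median log2 fold change of the 9 was 0.60, beside 0.03 over all genes, of which 53.7% were positive.

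*Cpt1b*, the carnitine palmitoyltransferase of muscle and brown fat, had the largest difference among the 9. It was 11.43, 9.45, 10.28, 11.02 and 10.77 in metformin SAT (animals 10K-2, 3R-1, 3R-2, 3R-5 and 3R-6), against a lowest, median and highest of 8.10, 8.97 and 10.72 in control SAT. The log2 fold change was 1.37 ± 0.499 (SE; 95% interval 0.29 to 2.45; adjusted p = 0.232), and its other probe gave 1.23 ± 0.466 (adjusted p = 0.244). The groups overlapped, since the metformin animal 3R-1 lay within the control range. *Cpt2*, on the inner membrane, was 12.79, 12.17, 12.39, 12.62 and 12.56 in the same order of metformin animals and 11.54, 12.06 and 12.34 in controls, a log2 fold change of 0.50 ± 0.165 (adjusted p = 0.202).

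*Hadhb*, the thiolase subunit of the trifunctional protein, had the lowest unadjusted p of the 9. It was 12.26, 10.67, 11.35, 12.09 and 11.92 in metformin SAT and 9.89, 10.72 and 11.05 in control SAT, a log2 fold change of 1.01 ± 0.296 (95% interval 0.37 to 1.65; adjusted p = 0.18). All metformin animals but 3R-1 were above the highest control. *Acaa2* (ILMN_2788984) was 11.59, 10.12, 10.61, 11.13 and 11.33 in metformin SAT and 9.11, 10.20 and 10.80 in controls (0.81 ± 0.321, adjusted p = 0.256). Its other probes gave 0.36 to 0.48 (adjusted p = 0.38 to 0.52), the lowest from ILMN_2704822, the brightest in the liver comparison. *Etfdh* was 11.07, 9.60, 10.45, 10.82 and 10.72 in metformin SAT and 9.66, 9.86 and 10.34 in controls (0.62 ± 0.235, adjusted p = 0.243). In *Etfdh* too, all metformin animals but 3R-1 were above the highest control.

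*Acadvl* gave 0.51 ± 0.222 (12.13 in metformin and 11.62 in control SAT, adjusted p = 0.284) and *Hadha* 0.60 ± 0.334 (7.46 and 6.86, adjusted p = 0.373). The other acyl-CoA dehydrogenases had estimates near 0 in SAT. *Acadm* was 13.45 ± 0.29 in metformin and 13.44 ± 0.0829 in control SAT (SD, log2 fold change 0.01, 95% interval -0.30 to 0.32, adjusted p = 0.981), and *Acadl* gave 0.02 (-0.52 to 0.56, adjusted p = 0.98). The sign of *Acadl* depended on the probe. ILMN_2783519 was 8.35 in metformin and 8.52 in control SAT, and ILMN_2735084, near background, was 5.31 and 4.92. Within the metformin group, animal 10K-2 was the highest and 3R-1 the lowest for 9 of 9 enzymes. The SAT array of 3R-1 also stood apart in 4 keratinocyte markers, with a mean log2 signal of 9.20 and all 4 detected, against 5.64 to 6.32 on the other metformin arrays and 5.61 to 6.12 on control arrays, and the part of skin in its values was not tested. In a model of all 41 arrays, 6 of the 9 were called higher (*Hadhb*, *Cpt2*, *Acaa2*, *Cpt1b*, *Etfdh* and *Acadvl*, adjusted p = 0.00228 to 0.0268), with 6.79% of all genes called in that model. It gives all tissues a shared estimate of the spread, whereas SAT, which varied more than liver, had its own in the main fit. With array weights 3 were called (*Hadhb*, *Etfdh* and *Acaa2*, adjusted p = 0.0222 to 0.0455), with 6.3% of all genes called.

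Markers of muscle and of brown fat, both of which express these enzymes strongly, differed between the same SAT arrays. The mean log2 signal of 14 skeletal muscle markers was 10.54 to 11.73 on metformin arrays and 6.48 to 11.87 on control arrays, with the controls 1R-4, 1T-3 and 1T-1 at 6.48, 7.75 and 8.57 and the other 3 at 11.35 to 11.87. All 13 of the muscle markers that were tested were positive (median log2 fold change 1.84), and none was called. The mean of 8 brown adipocyte markers was 8.85 to 10.01 on metformin arrays, with 3R-1 lowest and 10K-2 highest, and 7.73 to 9.29 on control arrays (5 of 6 tested positive, median 1.07, none called). Before adjustment, 5 of the 6 brown adipocyte markers and 2 of the 13 muscle markers were higher with p under 0.05 (limma), against 8.91% of all genes. General adipocyte markers had a median of -0.19. Without the 2 controls of lowest detection (1R-4 and 1T-1), the median of the 9 enzymes was 0.47 and 0 were called. Without the 3 controls lowest in muscle markers, the difference of *Cpt1b* was 0.45 (adjusted p = 0.681), that of *Hadhb* 0.66 (0.423), that of *Acaa2* 0.42 and that of *Etfdh* 0.47, the median of the 9 enzymes was 0.36 and 0 were called. The same 3 controls were also the lowest in brown adipocyte markers (1R-4 at 7.73, 1T-1 at 7.87 and 1T-3 at 8.10, the other controls at 8.49 to 9.29). Leaving them out therefore cannot tell muscle from brown fat. The part of muscle and brown fat in the SAT differences was not otherwise tested.

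**Figure D3:**
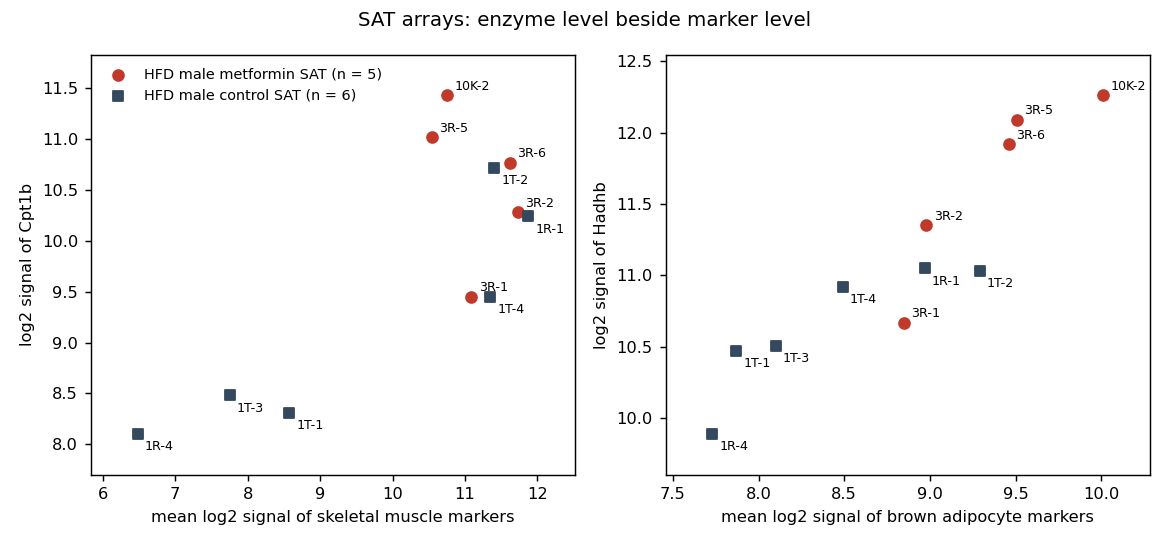
Log2 signal of Cpt1b against the mean log2 signal of 14 skeletal muscle markers (left) and of Hadhb against that of 8 brown adipocyte markers (right) on the 5 metformin and 6 control HFD SAT arrays, labelled by animal. The controls 1R-4, 1T-3 and 1T-1 stand apart at 6.48 to 8.57 in muscle markers, and the metformin arrays span 8.85 to 10.01 in brown adipocyte markers with 3R-1 lowest and 10K-2 highest.

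The effect of metformin was then compared between SAT and liver of the HFD offspring, as the signs differed for several enzymes. All 9 enzymes tested had a more positive difference in SAT than in liver (median 0.56, beside 0.03 over all genes), and 6 passed p under 0.05 before adjustment, higher, against 7.91% of all genes (7.38% lower). None was called, with 0% of 10042 genes called (limma). The difference between tissues was 1.18 ± 0.264 for *Etfdh* (95% interval 0.64 to 1.73, adjusted p = 0.0941), 1.04 ± 0.329 for *Hadhb* (0.149), 1.25 ± 0.582 for *Cpt1b* (0.303) and 0.90 for *Acaa2* (0.217). The value of *Acaa2* is from ILMN_2788984, with 11.55 in metformin and 11.63 in control livers and a difference of 0.81 in SAT. It is not from the probe that gave -0.64 in liver. With the animal as replicate block, since 11 animals gave both tissues, *Etfdh* passed (1.18, adjusted p = 0.0252, with 2.08% of all genes called) and *Hadhb* did not (0.0621). The clone probe of *Etfdh* gave 0.29 (adjusted p = 0.775). *Etfdh* thus had the lowest adjusted p of the 9 in either fit. Its estimates of -0.56 in liver, which was called, and 0.62 in SAT, which was not, came from separate models of the 2 tissues. In the model of all 41 arrays, the estimate in SAT was called (adjusted p = 0.0202, limma) and that in liver was not (0.0793). That model gives all tissues a shared estimate of the spread. The SD of *Etfdh* was 0.569 in metformin and 0.239 in control SAT, and 0.244 and 0.133 in liver.

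No enzyme was called after metformin in the offspring of RD dams. In male livers 0 of 10 were called, with 0.00995% of genes called. *Etfdh* was 11.23, 11.28 and 11.16 in metformin livers and 11.14, 11.12 and 11.04 in controls (0.12, adjusted p = 1), with every metformin liver above every control, which held for 4.46% of all genes. *Cpt1a*, the liver carnitine palmitoyltransferase, was 4.48, 4.79 and 5.09 in metformin and 5.26, 5.65 and 5.36 in control male livers (-0.63 ± 0.223, adjusted p = 0.85), with every metformin value below every control, against 6.05% of all genes. It was the 1 enzyme with p under 0.05 before adjustment, against 3.26% of all genes lower and 1.16% higher. Its lowest 2 metformin values were not detected.

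In RD female livers 0 of 10 were called, with 0% of genes called (limma), and 0 had p under 0.05 before adjustment (1.04% of all genes higher and 3.13% lower), with log2 fold changes of -0.05 to 0.29. Over both sexes 0 of 10 were called, with 0.0697% of genes called, and the estimates were 0.09 for *Etfdh* (95% interval -0.13 to 0.30) and 0.16 for *Acaa2* (-0.19 to 0.51). In RD male brains 0 of 9 were called, with 0.00935% of genes called, and 0 had p under 0.05 before adjustment (0.589% of all genes higher and 1.2% lower). The log2 fold changes in brain were -0.07 to 0.20, with *Etfdh* the highest at 0.20 ± 0.173 (adjusted p = 1).

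Whether the effect in male liver differed between the diets was tested directly. The effect in HFD minus that in RD livers was -0.68 ± 0.178 for *Etfdh* (adjusted p = 0.11), -0.86 ± 0.293 for *Acaa2* (0.191) and -0.47 ± 0.194 for *Acadm* (0.272). These 3 had p under 0.05 before adjustment, all of them more negative in HFD, against 5.44% of all genes (7.56% more positive), and 0 of 10 were called, with 0.139% of genes called. ILMN_2788984 of *Acaa2* gave -0.06 and the clone probe of *Etfdh* 1.07 (adjusted p = 0.189), so that the probes of both genes were divided here as well.

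**Figure D4:**
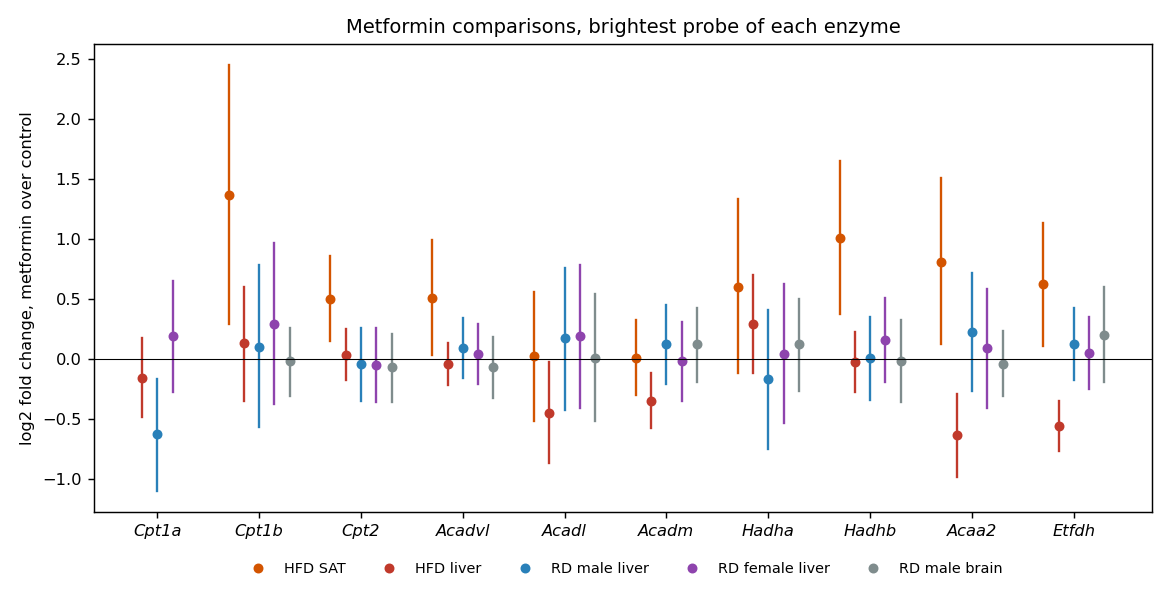
Log2 fold change of metformin over control with its 95% interval for the brightest probe of each enzyme in HFD SAT (n = 5 and 6), HFD liver (n = 6 each), RD male liver, RD female liver and RD male brain (n = 3 each). HFD SAT is positive for all 9 enzymes shown (0.01 to 1.37), Etfdh is at -0.56 in HFD liver, and RD brain lies between -0.07 and 0.20. For Acaa2 the brightest probe is ILMN_2788984 in SAT and brain and ILMN_2704822 in liver, so its points come from different probes.

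The enzymes were also compared between tissues. In RD male controls, all 9 enzymes detected in both tissues were lower in brain than in liver (adjusted p under 0.05), with a median of -3.64. Of all 11972 genes 77.6% were called (36.9% lower and 40.6% higher), and of the 8549 detected in both tissues 37.2% were lower, with a median of -0.03. *Acaa2* was 5.69, 5.78 and 6.32 in brain and 11.93, 12.14 and 12.42 in liver (sorted), a log2 fold change of -6.23 ± 0.22 (adjusted p = 1.48e-11). The size depended on the probe and the scale, with -4.74 from ILMN_2788984 and -4.48 with the log2 values of the authors. *Acadl* (5.95 in brain and 10.51 in liver), *Cpt2* (7.57 and 11.48), *Etfdh* (7.45 and 11.10), *Acadvl* (7.75 and 11.39), *Hadhb* (8.45 and 11.87) and *Acadm* (9.49 and 12.58) were lower by 3.09 to 4.56 on the log2 scale. In the 9 enzymes every brain was below every liver, against 38.1% of all genes and 38.6% of those detected in both tissues.

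*Hadha* was 4.94 in brain, where it was detected in 2 of 3 controls, and 6.19 in liver (-1.25, and -1.53 to -0.24 over the alternatives). *Cpt1a* was not detected in brain and was tested only because liver expressed it, so that its direction was given by the filter. On the main scale its level in brain was at least 1.56-fold lower than in liver, a bound from the lowest detected signals that was not tested. The fitted value was -1.03, and -1.41 to -0.19 over the alternatives. *Cpt1b* differed least, with 5.05 in brain and 5.45 in liver (-0.39, adjusted p = 0.0157), and was not called with the values of the authors (-0.05) or with arrays centred on medians (-0.11). That centring, in place of quantile normalization, changed the split of all genes to 6049 higher and 3020 lower, against 4865 and 4421.

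Between SAT and liver of HFD controls the enzymes divided, with 3 of 9 higher in SAT and 2 lower (64.1% of 10042 genes called, 37.8% higher and 26.3% lower). *Cpt1b* was 9.22 in SAT and 6.28 in liver, a log2 fold change of 2.94 ± 0.401 (adjusted p = 9.4e-07), and every SAT sample was above every liver, as was the case for 22.2% of all genes. With the log2 values of the authors the difference was 1.57 (adjusted p = 0.000133). *Acadm* was 13.44 in SAT and 12.56 in liver (0.88 ± 0.131, adjusted p = 3.24e-06), again without overlap, and *Cpt2* was 11.54 to 12.34 in SAT and 11.11 to 11.56 in liver (0.69 ± 0.133, adjusted p = 8.67e-05). *Acaa2* was lower in SAT, at 10.14 against 11.63 in liver (-1.49 ± 0.235, adjusted p = 7.36e-06; every SAT sample below every liver, against 17% of all genes), as was *Etfdh*, at 9.91 against 10.49 (-0.58 ± 0.182, adjusted p = 0.00797). By their brightest probes, *Acadl*, *Hadha*, *Hadhb* and *Acadvl* differed by -0.02 to 0.13 and were not called. ILMN_2783519 of *Acadl* was 8.52 in SAT (7.9 to 10.4) and 7.83 in liver (7.68 to 8.12). Its dimmest probe, near background, was 4.92 and 4.54. The muscle markers given above differed widely between these control SAT samples (6.48 to 11.87), and their part was not tested. With arrays centred on medians, *Cpt1b* and *Acaa2* kept the call.

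**Figure D5:**
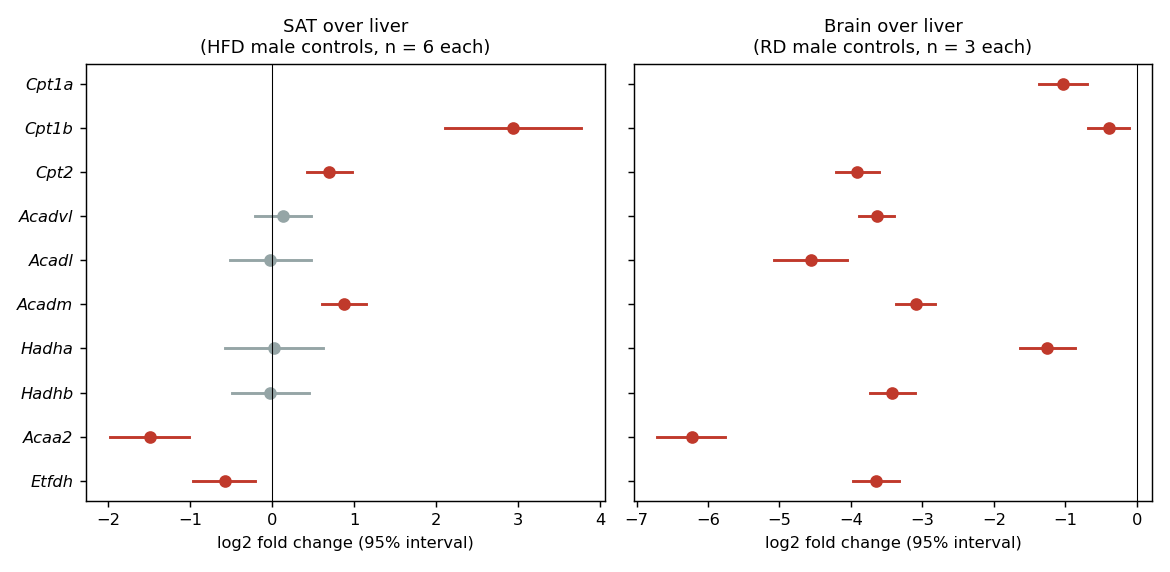
Log2 fold change with its 95% interval for the brightest probe of each enzyme, SAT over liver in HFD male controls (left, n = 6 each) and brain over liver in RD male controls (right, n = 3 each); red marks an adjusted p under 0.05. Brain is lower for the 9 enzymes detected in both tissues, from -0.39 (Cpt1b) to -6.23 (Acaa2), and Cpt1a, not detected in brain, is drawn at its fitted value. SAT over liver runs from -1.49 (Acaa2) to 2.94 (Cpt1b). The probe of Acaa2 differs between the panels, ILMN_2788984 on the left and ILMN_2704822 on the right.

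In control male livers, 2 enzymes were higher and 4 lower in HFD than in RD offspring (37.3% of 10046 genes called, 20.3% higher and 16.9% lower). *Hadhb* was 10.67 in HFD and 11.87 in RD livers, a log2 fold change of -1.21 ± 0.145 (adjusted p = 2.68e-06). *Acadl* was 9.11 and 10.51 (-1.40 ± 0.249, adjusted p = 0.000169), *Acaa2* 11.37 and 12.16 (-0.79 ± 0.207, adjusted p = 0.00509) and *Etfdh* 10.49 and 11.10 (-0.61 ± 0.126, adjusted p = 0.000708). *Cpt1b* was higher, at 6.28 against 5.45 in RD livers (0.83 ± 0.282, adjusted p = 0.0244), as was *Hadha*, at 6.83 against 6.19 (0.65 ± 0.242, adjusted p = 0.0398). The call of *Hadha* was lost in 6 of 9 fits without 1 array (each RD liver, and the HFD livers 1R-4, 1T-1 and 1T-3; 0.54 to 0.81 over the 9), and that of *Cpt1b* in 2 (the RD livers 1B and 5C; 0.61 to 1.01). By their brightest probes, *Cpt1a*, *Cpt2*, *Acadvl* and *Acadm* differed by -0.17 to 0.10. Of the other probes of *Cpt2*, ILMN_2775123 was 10.44 in HFD and 10.91 in RD livers, and ILMN_2885532 was 10.62 and 10.4. The other probe of *Acadvl* was 10.76 in HFD and 10.36 in RD livers.

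These directions also depended on the probe and the scaling. ILMN_2788984 of *Acaa2* was higher in HFD livers (0.60 ± 0.11, adjusted p = 0.000242), as was the clone probe of *Etfdh* (0.80, adjusted p = 0.018), and the other kept probe of *Acadl* gave 0.00. With arrays centred on medians in place of quantile normalization, 0 enzymes were higher and the same 4 were lower. *Cpt1b* was then at 0.29 and *Hadha* at -0.06. The split of all genes turned to 32 higher and 2332 lower, against 2044 and 1699 with quantile normalization. Diet and study cannot be told apart in any of these values.

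Other genes of fatty acid metabolism were counted from lists by the same rule. In HFD liver, 1 of 16 further genes of mitochondrial β-oxidation and electron transfer was called, with 0.587% of all genes called. This was *Mcee*, methylmalonyl-CoA epimerase of the propionate pathway, with 10.25 to 10.62 in metformin and 10.64 to 11.16 in control livers (-0.48 ± 0.103, adjusted p = 0.0354). Before adjustment 6 of the 16 were lower and 0 higher, against 9.4% and 7.85% of all genes, with a median of -0.23. The enoyl-CoA hydratase *Echs1* (-0.30, adjusted p = 0.112) and *Etfa*, a subunit of the flavoprotein that feeds *Etfdh* (-0.27, 0.13), followed *Mcee*. None was called among 10 genes of fatty acid activation and the carnitine shuttle, 11 of peroxisomal β-oxidation (lowest adjusted p 0.0551, *Decr2*, -0.92), 3 of ketone bodies, 15 regulators (median -0.29, with *Tfam*, *Rxra* and *Sirt3* at -0.29, -0.22 and -0.20) and 7 further PPAR targets.

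In SAT no gene of these lists was called. The lipid droplet protein *Plin5* was at 1.52 ± 0.393 (adjusted p = 0.152, limma) and *Plin2* at 0.77 (0.177), both of them PPAR targets. The fatty acid transporter *Slc27a2* was at 1.34 (0.232), with 6.95 to 8.3 in metformin SAT and 4.62, a level near background, to 7.44 in control SAT. Where a probe is kept through the metformin group alone, the filter favours a positive sign. The median was 0.38 over 6 PPAR targets, 0.29 over 10 genes of activation and shuttle and 0.12 over 16 further genes of mitochondrial β-oxidation, against 0.60 over the 9 enzymes. Between brain and liver of RD controls, 12 of the 12 further mitochondrial genes detected in both tissues were lower in brain, with a median of -2.01, against 37.2% of all genes detected in both. Between SAT and liver of HFD controls, 8 of 16 were higher and 1 lower in SAT, against 37.8% and 26.3% of all genes, with a median of 0.37.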

How the data were processed

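The authors deposited bead intensities per probe, not normalized, and beside each of them its detection p-value. The authors also deposited log2 values, made from these arrays with lumi (version not given in the sources used here) by variance stabilization and robust spline normalization, and these served as an alternative. Intensities of all 41 arrays were background-corrected with the detection p-values, quantile-normalized and log2-transformed by neqc (limma 3.58.1, R 4.3.3, offset 16). In the alternative with arrays centred on medians, quantile normalization was left out and each array was shifted to a common median. Of 45281 probes, 34885 had 1 gene symbol, 18 several and 10378 none. Probes with a detection p under 0.05 throughout 1 or more groups of a model were tested. Models with moderated statistics (limma lmFit, contrasts.fit, eBayes) were fitted to the 24 livers, 11 SAT arrays, 6 brain arrays, 23 HFD arrays and 12 arrays of RD males, with Benjamini-Hochberg adjustment over kept probes. Quantile normalization across tissues assumes equal signal distributions, and the offset shrinks differences of dim probes. The precision is limited by 3 to 6 arrays a group.

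The 10 enzymes and the gene and marker lists were chosen with earlier results of these data known. Named were all 10 enzymes and, from the lists, genes called in HFD liver or SAT and some of the 3 of lowest p per list. Animal codes show that liver and SAT (11 HFD animals), and liver and brain (6 RD males), came from the same animals. Deviations from group means of such pairs correlated at 0.0382 to 0.337 (over 0.1 in 7 of 11) and at -0.0344 to 0.328 (over 0.1 in 4 of 6). The script was tested on simulated data. Figures were drawn with matplotlib 3.10.9 (Python 3.11.15). A bound for a probe not detected in a group sets, on each array, the higher of the lowest detected signal and its own. An SAT metformin array that the study's methods discard for low signal was not analysed here. No sequence of *Cpt1b* or *Acaa2* is shown.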

Additional observations from a re-analysis of the deposited data

Results flagged for a closer look

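Of 38 sets of values (an enzyme's brightest probe in an HFD liver or HFD SAT group of 5 or 6 arrays), 1 had an array far from the others. The RD groups, of 3 arrays each, were not screened. *Hadhb* was 11.19 in the HFD metformin liver of animal 3R-5, with the nearest array at 10.68 and the lowest at 10.42, a gap of 0.661 of the range. Chance alone flags about 1 in 20 such sets.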

How the results depend on the processing

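The count of enzymes called in HFD liver was 1, and it was 2 with the authors' values, without background correction or with an offset of 50, 0 with arrays centred on medians, in the model of all 41 arrays, or with HFD livers alone (with or without the animal code as a block), and 1 to 2 without single arrays. *Acaa2* passed without the control 1T-2 or the metformin animal 10K-2. In SAT the count was 0, against 6 in the model of all arrays, where tissues share an estimate of the spread, and 3 with array weights. For SAT minus liver it was 0, against 1 with the authors' values, 2 in the model of all arrays, 3 with array weights, 1 with the animal as replicate block and 0 to 2 without single arrays (1 without the control SAT 1T-2, 2 without the metformin SAT 3R-1). The block changed no other count of enzymes by over 1.5 times. For SAT against liver, 5 were called, against 2 with centring. Set against quantile normalization, centring moved the median of all genes by -0.22 in HFD liver, 0.52 in SAT and 0.73 in SAT minus liver. Centring also moved that median by 0.47 in brain against liver and -0.61 in HFD against RD. Under it, values turned to -0.08 (*Cpt1b*) and -0.43 (*Cpt2*) in HFD liver, -0.05 (*Etfdh*) in RD male, -0.34 (*Acaa2*) and -0.45 (*Etfdh*) in RD female and -0.12 and -0.25 in RD livers of both sexes, and -0.06 (*Hadha*) in HFD against RD. With array weights *Cpt2* was -0.04 and *Hadhb* 0.03 in HFD liver. In SAT, *Acadm* was -0.01 with the authors' values and with the code block, where *Acadl* was 0.00. Alternatives without the dimmest or lowest-muscle arrays were chosen after seeing the data. They gave -0.01 for *Cpt1b* in liver, and -0.02 (without 2 SAT controls) and -0.04 (without 3) for *Acadm*. Without single arrays the signs of small values varied, with ranges of -0.05 to 0.35 (*Cpt1b*), -0.01 to 0.09 (*Cpt2*) and -0.14 to 0.02 (*Hadhb*) in HFD liver, -0.11 to 0.22 (*Acadl*) and -0.10 to 0.10 (*Acadm*) in SAT, -0.01 to 0.25 (*Acaa2*) and -0.02 to 0.12 (*Etfdh*) in RD female liver, and -0.10 to 0.01 (*Acaa2*) in RD brain. The cause was not tested in any of these. Of all genes, 59 were called in HFD liver (0 to 176 over the alternatives, the highest without the metformin animal 10K-2), 0 in SAT (0 to 841), 0 in SAT minus liver (0 to 323), 14 in HFD minus RD (0 to 62, the highest without the RD metformin liver 6F) and 7 in RD livers of both sexes (1 to 62). Signal near background limits *Cpt1a*, and *Acadm*, *Hadha* and *Hadhb* rest on 1 probe each.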

Other observations

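The level of each enzyme over the 10 group means was set beside that of 12387 genes, as a description in which tissue accounts for most of the range and groups share animals. The genes with the highest Pearson r were *Adat1* (0.96) and *Wapl* (0.951) for *Cpt1a*, and *Pla2g2e* and *Myot* (0.991 each) for *Cpt1b*. *Myot* encodes a protein of the muscle Z disc. For *Cpt2* they were *Col14a1* (0.998) and *Gata6* (0.997), for *Acadvl* *Slc25a10* and *Col14a1* (0.998 each), for *Acadl* *Tnfrsf1a* and *Cutc* (0.993 each), and for *Acadm* *Gata6* and *Tcf7l1* (0.998 each). For *Hadha* they were *Tbrg4* and *Mtx1* (0.989 each), for *Hadhb* *Sec11a* and *Suclg1* (0.992 each), for *Acaa2* *Arf6* (0.997) and *Akr1b8* (0.996), and for *Etfdh* *Dnajc19* (0.995) and *Trmt2b* (0.994). Among the enzymes themselves, *Cpt2* and *Acadvl* were most alike (0.995), followed by *Acadm* and *Cpt2* (0.992) and by *Etfdh* and *Acadl* (0.988), and the liver and muscle forms *Cpt1a* and *Cpt1b* had an r of -0.31.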
